A study of Mus musculus with 9 samples.

Results

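Adipokines are proteins that fat tissue secretes and that act on other organs or on the tissue itself. The set described here was chosen by name, with earlier results of these data known. It holds leptin (Lep), adiponectin (Adipoq), resistin (Retn), retinol binding protein (Rbp4) and Nampt. It also holds chemerin (Rarres2), apelin (Apln), Metrnl, neuregulin 4 (Nrg4) and Fgf21. A gene entered where an array probe set carried its symbol and no other, which held for 9 of the 10 genes, among 22180 genes in all. The only listed probe set of Rarres2 also carries Lrrc61, so Rarres2 was not analysed here.

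Transcript levels were measured in periprostatic fat, the depot around the prostate, on 1 Affymetrix Mouse Gene 2.0 ST array per mouse. The 9 mice were male C57BL/6J animals, and the labels name no transgene. From 6 weeks of age 5 of them ate a high fat diet (60 percent of energy as fat) and 4 a low fat diet (10 percent), and after 12 weeks on diet, at 18 weeks of age, the depot was collected. Body weight, fasting state and plasma hormones were not analysed here, so the values are of mRNA in this depot alone. Levels are deposited log2 values, in which a difference of 1 is a doubling, and differences are high fat minus low fat.

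As background, leptin signals the size of the fat stores to the brain, and its gene is usually more active in larger adipocytes. Adiponectin promotes insulin sensitivity and fatty acid oxidation, and its level in blood is usually low in obesity. Resistin is made by adipocytes in the mouse, whereas in humans it comes mainly from myeloid cells. Visceral depots such as this one are known for taking up macrophages as they expand, and several adipokines are made by cells other than adipocytes too.

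The tissue label was checked against marker genes. Adipocyte markers were abundant in all 9 mice, with a mean over 16 genes of 12.1 to 12.3 in high fat mice and 12.6 to 12.7 in low fat mice, and markers of prostate and seminal vesicle lay at 5.08 to 5.18 in all mice. High fat mouse 1 stood apart in skeletal muscle markers (8.69 against 6.39 to 7.37 in the other 8 mice) and low fat mouse 2 in smooth muscle markers (10.2 against 8.11 to 8.45). Low fat mouse 2 also had the highest mean of brown adipocyte markers (7.77 against 6.59 to 7.46). Of these markers Ucp1, Cidea and Cox8b were highest in this mouse, whereas Dio2, Elovl3 and Otop1 were not. Array values spread slightly more in high fat mice 1 and 2 (SD 1.87) than in the others (1.83 to 1.84). In the limma fit across all genes, 2742 genes were higher and 2026 lower in high fat diet at an adjusted p under 0.05, and repeating quantile normalization gave 2320 and 2771, while median centring gave 2227 and 3056. The labels tie each array to its own mouse but give no cages or litters.

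Upstream sequence differs between these genes, and 4 stretches are shown because the genes behind them took different courses with diet: Lep was higher in high fat diet, Adipoq and Retn lower, and Fgf21 did not pass the test. Each line is the 250 bases before the RefSeq start site in GRCm38.p6, read 5′ to 3′ on the gene's strand, and capitals mark a match to a motif. Lep is chr6:29059971-29060220 (plus strand), Adipoq chr16:23146286-23146535 (plus), Retn chr8:3655520-3655769 (plus) and Fgf21 chr7:45615491-45615740 (minus).
Lep: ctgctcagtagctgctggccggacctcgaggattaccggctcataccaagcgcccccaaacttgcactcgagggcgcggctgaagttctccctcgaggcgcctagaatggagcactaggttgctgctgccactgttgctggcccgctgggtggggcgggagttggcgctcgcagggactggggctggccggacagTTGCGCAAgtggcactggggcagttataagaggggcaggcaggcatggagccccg
Adipoq: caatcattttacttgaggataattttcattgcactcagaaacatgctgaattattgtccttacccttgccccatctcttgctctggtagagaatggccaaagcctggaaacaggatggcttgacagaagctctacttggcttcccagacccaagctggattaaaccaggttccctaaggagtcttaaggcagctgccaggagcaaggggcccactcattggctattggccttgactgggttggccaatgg
Retn: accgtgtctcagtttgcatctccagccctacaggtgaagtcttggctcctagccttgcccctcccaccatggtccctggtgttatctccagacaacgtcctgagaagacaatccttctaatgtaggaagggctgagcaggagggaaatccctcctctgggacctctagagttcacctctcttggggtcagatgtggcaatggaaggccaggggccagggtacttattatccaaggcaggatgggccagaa
Fgf21: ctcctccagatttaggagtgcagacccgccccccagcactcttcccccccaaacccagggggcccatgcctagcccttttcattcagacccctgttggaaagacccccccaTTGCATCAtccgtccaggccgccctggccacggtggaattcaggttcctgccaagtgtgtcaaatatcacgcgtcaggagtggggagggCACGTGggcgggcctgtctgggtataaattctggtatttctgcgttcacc

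All 9 genes had an upstream stretch in the RefSeq table, and Rbp4 had a further start site, which made 10 stretches. They were searched on both strands for the C/EBP core TTGCNNAA and its palindrome TTGCGCAA, which is a case of that core, for the composite element TGATGCAA of C/EBP and ATF factors, for the E-box CACGTG and for the PPAR element, a direct repeat of AGGTCA with 1 base between the copies. Lep held the palindrome 55 bases before its start, a match that 54 of 32851 stretches of the same length hold (0.164%). Rbp4 held the core at 128 bases before its other start site, and 9.56% of all stretches hold that core. Fgf21 held the composite element 139 bases before its start (0.791% of all stretches) and an E-box at 50 bases (6.02%). The PPAR element, found in 0.0335% of all stretches, had no match in these 10, and the remaining genes had no match to any of the 5 patterns, which says only that these letters are not in this window.

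By limma with Benjamini-Hochberg adjustment over all 22180 genes, 3 adipokine genes were higher in high fat diet (Lep, Apln and Metrnl) and 5 were lower (Adipoq, Retn, Rbp4, Nampt and Nrg4). The share of all genes past this threshold was 21.5%, with 12.4% of genes higher and 9.13% lower. High and low fat mice occupied separate ranges for 7 of the 9 genes, against 20.7% of all genes. The median difference of the 9 genes was -0.36, beside a median of -0.001 over all genes tested. The count of 8 remained 8 when any single mouse was left out. In this whole tissue, fewer cells of a type and less RNA per cell cannot be told apart.

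**Figure D1:**
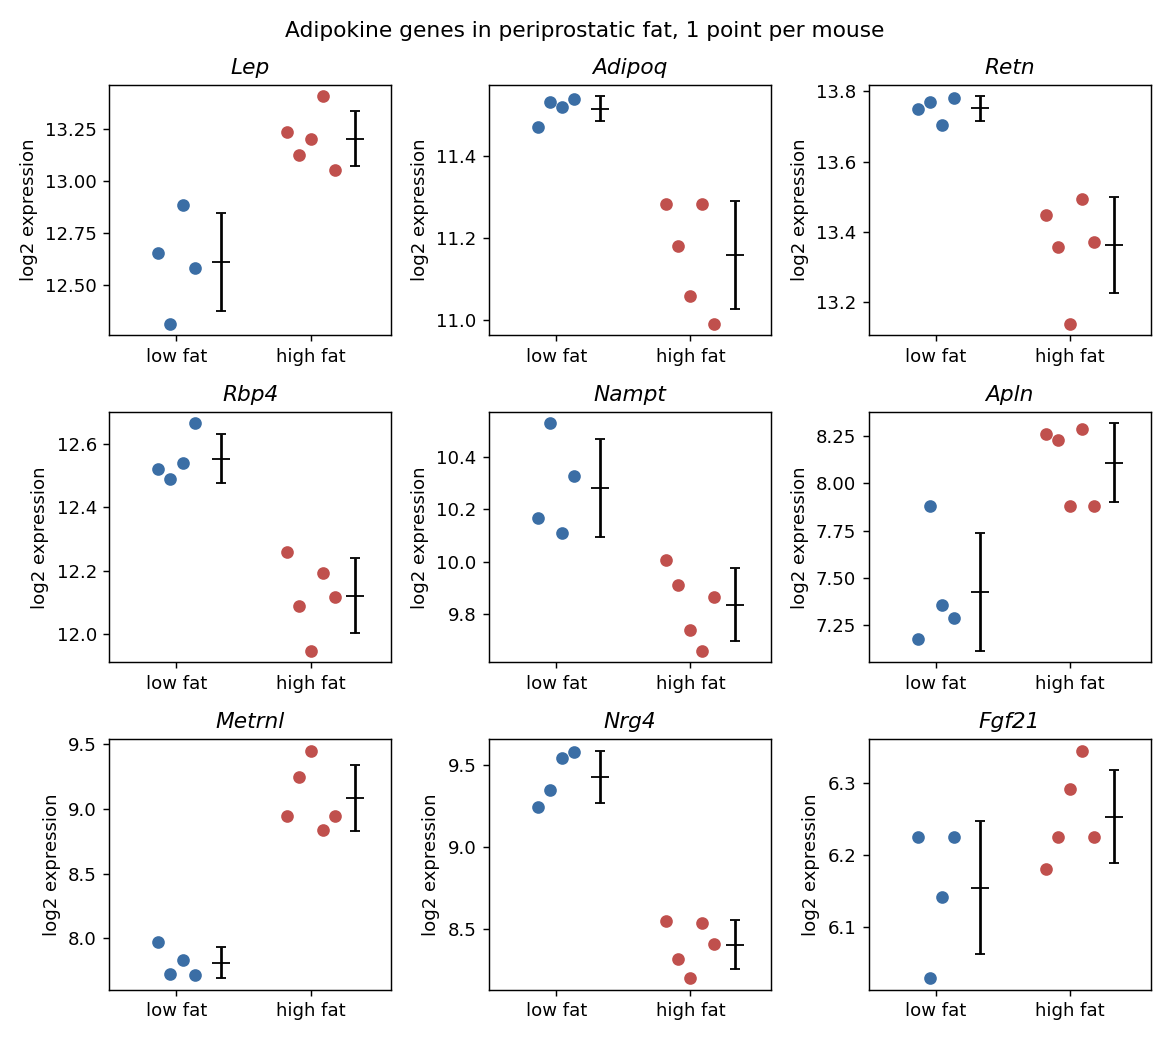
Log2 expression of the 9 measured adipokine genes in low fat (blue, 4 mice) and high fat (red, 5 mice) diet, 1 point per mouse, with the mean and SD in black beside each group; each panel has its own vertical axis, which does not start at 0. The groups are apart in 7 panels; they share a value at 7.88 in Apln and overlap in Fgf21.

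Leptin mRNA was already abundant in low fat mice, at 12.65, 12.31, 12.89 and 12.58 in low fat mice 1 to 4. In high fat mice 1 to 5 it was 13.24, 13.13, 13.20, 13.41 and 13.05. The lowest high fat mouse lay above the highest low fat mouse, and low fat mouse 2 was the lowest of all. The difference was 0.60 ± 0.11 (SE; 95% interval 0.35 to 0.84; limma adjusted p = 0.00356), a 1.51-fold higher level. Without any 1 mouse it stayed between 0.50 and 0.69. Whether the probe approaches saturation at this level was not determined.

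Adiponectin mRNA moved the other way. It was 11.47, 11.53, 11.52 and 11.54 in low fat mice 1 to 4, a range narrower than that of the high fat mice, which were at 11.28, 11.18, 11.06, 11.28 and 10.99. Every high fat mouse lay below every low fat mouse, and high fat mouse 5 was the lowest. The difference was -0.36 ± 0.07 (SE; limma adjusted p = 0.00359), or 1.28-fold lower. Within each mouse, log2 Lep minus log2 Adipoq was 1.94 to 2.14 in high fat mice and 0.78 to 1.37 in low fat mice, so that the ratio of leptin to adiponectin signal was 1.94-fold higher in high fat diet on average. This within-array ratio is a description with no test, and its level depends on the affinities of 2 different probe sets.

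Resistin and Rbp4, both abundant in adipocytes, were lower by similar amounts. Retn was 13.75, 13.77, 13.70 and 13.78 in low fat mice 1 to 4 and 13.45, 13.36, 13.14, 13.49 and 13.37 in high fat mice 1 to 5. No high fat mouse reached the low fat range, and high fat mouse 3 was the lowest. The difference of Retn was -0.39 ± 0.07 (SE; limma adjusted p = 0.00264), or 1.31-fold lower. Cross-hybridisation between resistin and its relatives was not tested, and whether the Retn probe approaches saturation at this level was not determined.

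Rbp4, whose protein carries retinol in blood, was 12.52, 12.49, 12.54 and 12.66 in low fat mice and 12.26, 12.09, 11.95, 12.19 and 12.12 in high fat mice, in order of mouse number. The groups were apart, and high fat mouse 3 was again the lowest mouse. The difference of Rbp4 was -0.43 ± 0.07 (SE; limma adjusted p = 0.00125), or 1.35-fold lower.

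Nampt, the enzyme that starts the salvage of NAD from nicotinamide and is also released by cells, was 10.16, 10.53, 10.11 and 10.33 in low fat mice 1 to 4 and 10.01, 9.91, 9.74, 9.66 and 9.87 in high fat mice 1 to 5. The groups did not overlap, although high fat mouse 1 and low fat mouse 3 lay close to each other. The difference of Nampt was -0.45 ± 0.10 (SE; limma adjusted p = 0.00873), or 1.36-fold lower.

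Nrg4, an epidermal growth factor family ligand that adipocytes secrete and that acts on liver, had the lowest p of the set. It was 9.25, 9.35, 9.54 and 9.58 in low fat mice 1 to 4 and 8.55, 8.32, 8.20, 8.54 and 8.41 in high fat mice 1 to 5. The space between the groups was wider than the range of either group. The difference of Nrg4 was -1.03 ± 0.09 (SE; 95% interval -1.23 to -0.82; limma adjusted p = 9.89e-05), or 2.04-fold lower, and without any 1 mouse it was -1.09 to -0.97.

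Metrnl, a secreted relative of meteorin that fat, muscle and macrophages make, had the largest increase of the set. It was 7.97, 7.73, 7.83 and 7.72 in low fat mice 1 to 4 and 8.95, 9.25, 9.45, 8.83 and 8.94 in high fat mice 1 to 5. All high fat mice were well above the low fat range, and high fat mouse 3, which had the lowest Retn, Rbp4 and Nrg4 values, had the highest. The difference of Metrnl was 1.27 ± 0.12 (SE; 95% interval 1.00 to 1.54; limma adjusted p = 0.000135), or 2.41-fold higher.

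Apln, the ligand of the apelin receptor, which adipocytes and endothelial cells make, was higher with wider scatter. It was 7.18, 7.88, 7.36 and 7.29 in low fat mice 1 to 4 and 8.26, 8.23, 7.88, 8.29 and 7.88 in high fat mice 1 to 5. Low fat mouse 2 and high fat mice 3 and 5 had exactly the same deposited value, so the groups met. The difference of Apln was 0.68 ± 0.15 (SE; limma adjusted p = 0.00918), or 1.61-fold higher. Without high fat mice 1 and 2 it was 0.59 and no longer passed (limma adjusted p = 0.0685).

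Fgf21, a hormone known chiefly from liver that also acts within fat, lay at 6.22, 6.03, 6.14 and 6.22 in low fat mice 1 to 4 and at 6.18, 6.22, 6.29, 6.34 and 6.22 in high fat mice 1 to 5. All 9 values were below the medians of the arrays (6.45 to 6.50 over all rows), the groups overlapped, and 4 mice of both diets had exactly the same value. The difference of Fgf21 was 0.10 ± 0.05 (SE; 95% interval -0.02 to 0.22) and missed the threshold (limma adjusted p = 0.244). Whether these values lie above background was not determined.

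Markers of adipocytes and of other cells moved with diet beside these genes, and their counts are read against 12.4% of all genes higher and 9.13% lower. Of 16 measured adipocyte markers 12 fell and 4 did not pass, and their mean level differed by -0.48. Of 14 macrophage markers 13 rose, with a mean level of 10.7 to 11.2 in high fat mice and 9.51 to 9.91 in low fat mice, and of 8 progenitor and fibroblast markers 5 rose. None of the adipokine genes is on the adipocyte list, while Cebpa and Pparg are on it and also among the regulators described later. Endothelial markers had 1 member up and 1 down of 8, a share of 25% that is near the 21.5% of all genes. Of 5 B and plasma cell markers 2 fell, among them the plasma cell gene Jchain by 1.97 (limma adjusted p = 0.0131), and their mean level was 7.43 to 8.83 in high fat mice and 8.88 to 9.82 in low fat mice. Of 6 T and NK cell markers Ncr1 alone passed, at -0.49, and of 6 brown adipocyte markers Otop1 rose by 1.92 and Cidea fell by 0.99, while the mean level of these lists overlapped between the diets. The part of these cells in the changes of Metrnl, Apln and the other adipokine genes was not tested.

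Levels were also expressed relative to the adipocyte markers, by subtracting their mean from each array. On that scale the median difference of all genes was 0.48, 94.0% of genes passed the threshold and 1.20% were past it in the lower direction. Adipoq (0.12 ± 0.06, SE), Retn (0.09 ± 0.06), Rbp4 (0.05 ± 0.06) and Nampt (0.03 ± 0.10) turned in sign and did not pass, with limma adjusted p of 0.0557, 0.192, 0.482 and 0.736. These genes thus differed between the diets by amounts close to the mean of the adipocyte markers (-0.48). On this scale 5.99% of all genes did not pass. The markers themselves ran from -1.82 (Pck1) to -0.01 (Dgat2), with a median of -0.34. Adipoq, Retn, Rbp4 and Nampt (-0.45 to -0.36) lay between the mean and the median of these marker differences. A scale set by the marker median of each array was not tested. Nrg4 was still lower, at -0.55 ± 0.08 (SE; limma adjusted p = 3.91e-05). Lep (1.08), Apln (1.16) and Metrnl (1.75) were above the median shift of all genes, while Fgf21 (0.58) was close to it. Of the genes below that fell, Gstk1 (-0.04), C1qtnf12 (-0.11), Cebpa (-0.12), Srebf1 (-0.03) and Vegfa (-0.04) kept their sign without passing on this scale. Adipor2 (0.07), Prkaa1 (0.006), Prkaa2 (0.04), Ppara (0.006) and Rdh10 (0.15) turned in sign and did not pass. Fgfr1 (0.21), Retnlg (0.27), Nmnat1 (0.28), Nmrk1 (0.24), Sirt1 (0.26) and Sirt3 (0.29) turned and passed as higher. Erbb4, Klb, Agt and Klf15 stayed lower and passed, as Nrg4 did. Cebpa is itself 1 of the 16 reference genes, so its value is in part set against itself.

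**Figure D2:**
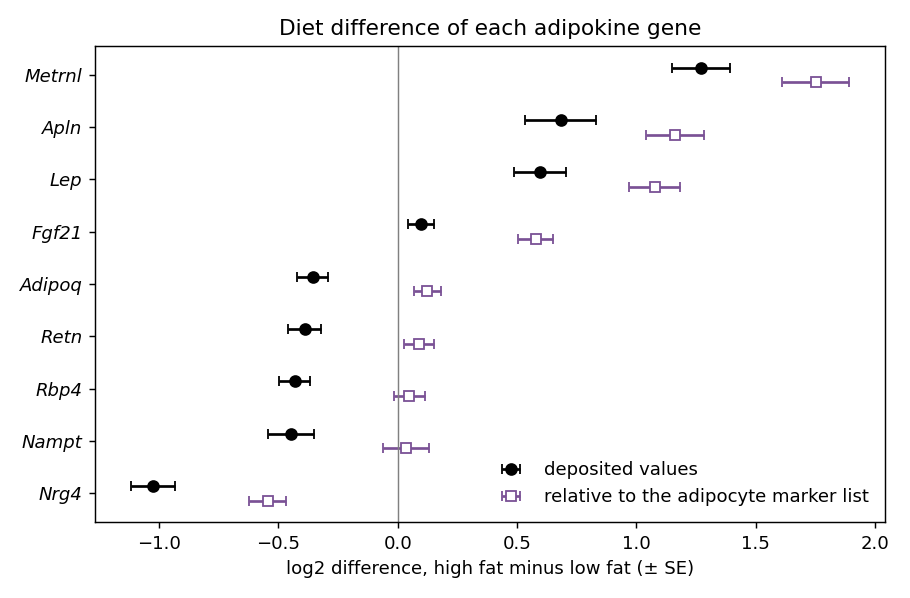
Log2 difference between the diets, high fat minus low fat, with its SE for the 9 measured adipokine genes, from the deposited values (filled circles) and relative to the mean of 16 adipocyte marker genes in the same array (open squares). Adipoq, Retn, Rbp4 and Nampt lie between -0.45 and -0.36 on the deposited scale and between 0.03 and 0.12 on the relative scale, whereas Nrg4 stays lower on both.

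Receptor and binding protein genes of the adipokines were measured in the same tissue, all 16 of them. By limma, 4 rose and 4 fell, with a median of -0.03, again beside 21.5% of all genes past the threshold. Without high fat mouse 1 and low fat mouse 2 the counts were 3 and 3.

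For leptin, the receptor gene Lepr was at 5.46 to 5.71 in high fat mice and at 5.61 to 5.66 in 3 low fat mice, with low fat mouse 2 at 6.63. Its difference of -0.25 did not pass (limma adjusted p = 0.422, 95% interval -0.68 to 0.18), and without low fat mouse 2 it was 0.002. Of the adiponectin receptors, Adipor2 fell by 0.41 ± 0.06 (SE; limma adjusted p = 0.000786), with high fat mice at 11.50 to 11.68 and low fat mice at 11.88 to 12.09. Adipor1 differed by -0.01 (95% interval -0.10 to 0.09) and Cdh13, which encodes the adiponectin-binding T-cadherin, by -0.09 (interval -0.19 to 0.02), and neither passed. The adiponectin receptors were thus not alike in their values, although the difference between Adipor1 and Adipor2 was not tested.

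For neuregulin 4, Erbb4, the receptor that binds it, was 7.24, 7.49, 7.32 and 7.07 in low fat mice 1 to 4 and 6.25, 6.24, 6.40, 6.62 and 6.53 in high fat mice 1 to 5. All high fat mice lay below the low fat range. Erbb4 fell by 0.87 ± 0.10 (SE; limma adjusted p = 0.000301), or 1.83-fold, so ligand and receptor genes were both lower in this depot. The high fat values of Erbb4 lay around the medians of the arrays (6.45 to 6.50 over all rows). Whether they lie above background was not determined. Erbb3, the other family member listed, differed by 0.01 with an interval of -0.21 to 0.22.

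For Fgf21, both parts of its receptor complex were lower while the ligand gene did not pass. Klb, which encodes the co-receptor beta-Klotho, was 10.71, 10.71, 10.59 and 10.48 in low fat mice 1 to 4 and 10.08, 9.93, 9.74, 9.81 and 9.46 in high fat mice 1 to 5. The groups were apart, and the difference of Klb was -0.82 ± 0.11 (SE; limma adjusted p = 0.000705), or 1.77-fold lower. Fgfr1 fell by 0.27 ± 0.07 (SE; limma adjusted p = 0.0205), a call that was lost without high fat mouse 2 (-0.25), high fat mouse 3 (-0.25) or low fat mouse 3 (-0.22).

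For apelin, ligand and receptor genes were both higher. Aplnr, the apelin receptor, was at 9.88 to 10.01 in high fat mice and 9.40 to 9.77 in low fat mice, a difference of 0.41 ± 0.07 (SE; limma adjusted p = 0.00232). Among the chemerin receptors Ccrl2, which binds chemerin without signalling, rose by 0.74 ± 0.12 (SE; limma adjusted p = 0.00177), from 7.00 to 7.53 in low fat mice up to 7.72 to 8.20 in high fat mice. The signalling receptor genes Cmklr1 (-0.17) and Gpr1 (0.14) did not pass.

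Cap1, an actin regulator described as a receptor of resistin, rose by 0.39 ± 0.06 (SE; limma adjusted p = 0.00181). Of the genes for retinol uptake from Rbp4, Stra6l rose by 0.47 ± 0.10 (SE; limma adjusted p = 0.00783) and no longer passed without high fat mouse 1 and low fat mouse 2 (0.41). Stra6, at 6.10 to 6.53 in all mice, differed by 0.04. Kit, described as a receptor of Metrnl and also a mast cell gene, differed by -0.05, and high fat mouse 4, at 9.13, lay above the range of 8.50 to 8.67 that its 4 group mates spanned.

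**Figure D3:**
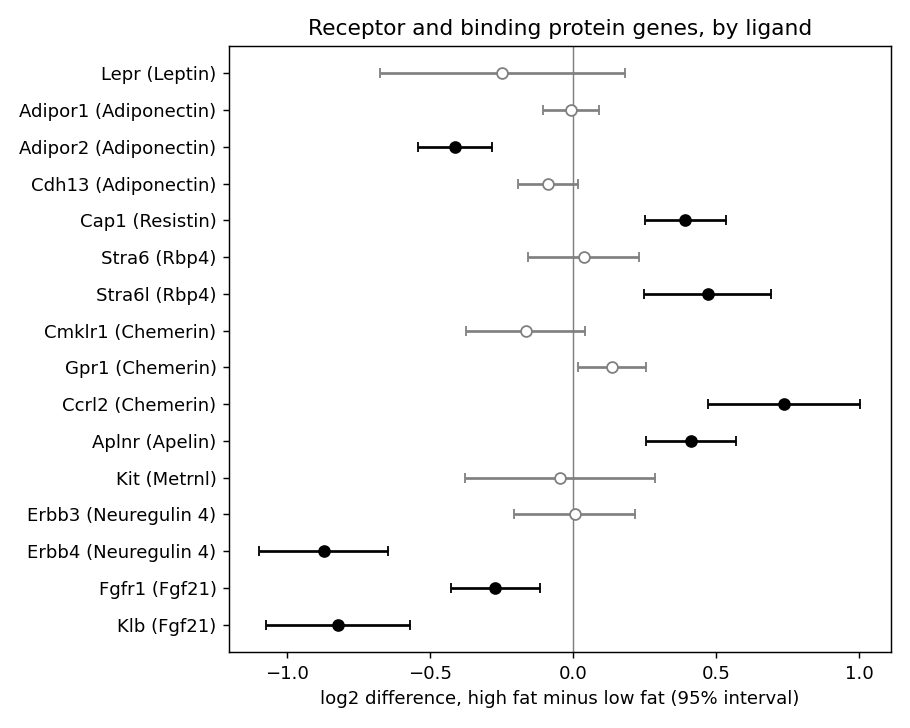
Log2 difference between the diets, high fat minus low fat, with its 95% interval for 16 receptor and binding protein genes, grouped by ligand (in brackets); filled black points passed the limma threshold over all genes and open grey points did not. Erbb4 (-0.87) and Klb (-0.82) lie farthest to the left and Ccrl2 (0.74) farthest to the right.

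Genes that act with single adipokines were described by lists, each read against 21.5% of all genes past the threshold. In leptin signalling, 3 of 6 measured genes rose and no other passed, with a list median of 0.17. They were Stat3, the transcription factor downstream of the receptor (0.24), and Socs3 (0.36) and Ptpn1 (0.35), which are known to dampen leptin signalling; Sh2b1, an adaptor of the receptor kinase, was at -0.09. With mice blocked by number Socs3 did not pass (0.33, limma adjusted p = 0.0575).

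Of 7 genes for the assembly and secretion of adiponectin, 4 rose and 1 fell, with a median of 0.26. The lysyl hydroxylase gene Plod1 rose by 0.51, the endoplasmic reticulum chaperone gene Hspa5 by 0.47, the disulfide isomerase gene P4hb by 0.40 and Erp44, which retains adiponectin in the endoplasmic reticulum, by 0.26. Erp44 no longer passed with mice blocked by number (0.23) or without high fat mice 1 and 2 (0.23). It also did not pass without high fat mouse 1 and low fat mouse 2 (0.25). Gstk1, known in this context as DsbA-L and described as promoting adiponectin multimers, fell by 0.52 (limma adjusted p = 0.000877). In adiponectin signalling, 3 of 6 genes fell and the others did not pass (median -0.27): Prkaa1 (-0.47) and Prkaa2 (-0.44), the catalytic subunits of AMP-activated kinase, and Ppara (-0.47), a transcription factor of fatty acid oxidation, while Prkab2 was at -0.11.

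The C1q/TNF related proteins share adiponectin's globular fold. Of 9 measured, 4 rose and 1 fell (median 0.31), and the total was 3 without high fat mouse 2, high fat mouse 5, low fat mouse 1 or low fat mouse 4. C1qtnf6 rose by 0.73 and C1qtnf7 by 0.31, whereas C1qtnf12, an insulin-sensitising adipokine also known as adipolin, fell by 0.59 (limma adjusted p = 0.00367). C1qtnf1 (0.37) was the other that rose, and its call was lost without high fat mouse 2, 4 or 5 or low fat mouse 1, 2 or 4 (0.31 to 0.37), under repeated quantile normalization (0.32), median centring (0.32) or array weights (0.33), and with mice blocked by number (0.35). C1qtnf2 rose by 0.34, a call lost without high fat mouse 2 (0.33) or 5 (0.32) or low fat mouse 1 (0.34), 3 (0.30) or 4 (0.27).

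Of resistin's relatives, Retnla, a marker of alternatively activated macrophages, was abundant at 12.1 ± 0.17 (SD, n = 5) and 12.3 ± 0.22 (SD, n = 4) and its difference of -0.17 did not pass. Retnlb differed by -0.03. Retnlg, made by neutrophils, differed by -0.21 at a level of 5.25 against 5.45, below the medians of the arrays, and no longer passed without high fat mouse 1 (-0.19) or 2 (-0.17) or low fat mouse 2 (-0.17) or 4 (-0.20).

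Of 11 genes that handle retinol, the cargo of Rbp4, 2 rose and 1 fell (median 0.03). This share of 27.3% is near the 21.5% of all genes. Aldh1a3, which makes retinoic acid, rose by 0.50 (limma adjusted p = 0.0137), Rdh10, which oxidises retinol, fell by 0.33 (limma adjusted p = 0.0148), and Aldh1a2 was at 0.49 without passing (limma adjusted p = 0.0628). Rdh10 no longer passed without high fat mouse 1 and low fat mouse 2 (-0.25). Aldh1a2 passed without high fat mouse 3 (0.60) or low fat mouse 1 (0.65), with array weights (0.54), with dim genes left out (0.49) and with mice blocked by number (0.48). Ttr, the blood partner of Rbp4, was low in all mice, and its difference of 0.21 passed but was lost under median centring (0.16), repeated quantile normalization (0.18) or array weights (0.18) and without high fat mouse 3 (0.19) or 5 (0.17) or low fat mouse 1 (0.19), 2 (0.20) or 4 (0.19).

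Around Nampt, 4 of 11 genes of NAD salvage and use fell (median -0.13): Nmrk1 (-0.24) and Nmnat1 (-0.20), enzymes of NAD synthesis, and the deacetylase genes Sirt1 (-0.22) and Sirt3 (-0.19). The list had 1 call without high fat mouse 3 and 2 without high fat mouse 5, low fat mouse 1 or low fat mouse 2, and none of the 4 named genes passed without low fat mouse 3 or with mice blocked by number. Of 8 relatives of the growth factor members, Fgf1, which acts in adipose remodelling, rose by 0.55 (limma adjusted p = 0.00942) and Metrn, the nearest relative of Metrnl, by 0.28. That share of 25% is near the 21.5% of all genes. Metrn was not past the threshold without any 1 of high fat mice 1 to 4 or low fat mice 2 and 4 (0.22 to 0.28). Apela (-0.11) and Fgf15 (0.10) did not pass.

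Other secreted factors of fat rose in 10 of 20 measured genes and fell in 2, with a median of 0.44. Of all genes, 12.4% were higher and 9.13% lower. The chemokine gene Ccl2 rose by 2.61 ± 0.28 (SE; limma adjusted p = 0.000224), the cytokine gene Tnf by 0.83 ± 0.09 (SE; limma adjusted p = 0.000184) and Fstl1, a secreted glycoprotein of stromal cells, by 0.90 ± 0.09 (SE; limma adjusted p = 0.000174). Agt, the angiotensinogen gene, was 10.07, 10.59, 10.67 and 10.19 in low fat mice 1 to 4 and 8.73, 8.88, 8.51, 9.24 and 8.85 in high fat mice 1 to 5. It had the largest decrease among these factors, with groups far apart and a difference of -1.54 ± 0.16 (SE; limma adjusted p = 0.000184). Vegfa, the vascular growth factor gene, was the other that fell (-0.52). It did not pass without high fat mice 1 and 2 (-0.51) or without high fat mouse 1 and low fat mouse 2 (-0.52). Macrophage markers moved with this list too, as given above, and their part was not tested. Without high fat mice 1 and 2 the counts of the list were 7 and 1.

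Regulators of adipokine genes fell in 7 of 13 and rose in 1 (median -0.33), beside 9.13% of all genes lower and 12.4% higher. Klf15, a transcription factor of adipocyte differentiation, fell by 1.10 ± 0.15 (SE; limma adjusted p = 0.000763), Cebpa, which encodes the C/EBP protein known to act on the leptin and adiponectin promoters, by 0.60 ± 0.06 (SE; limma adjusted p = 0.000224), and Srebf1, the lipogenic transcription factor, by 0.51 ± 0.06 (SE; limma adjusted p = 0.000466). Hif1a, the hypoxia-inducible factor, rose by 0.39 ± 0.04 (SE; limma adjusted p = 0.000221). Lep, whose upstream stretch holds the C/EBP palindrome, was higher while Cebpa was lower, and whether the factor acts there in this tissue was not measured.

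**Figure D4:**
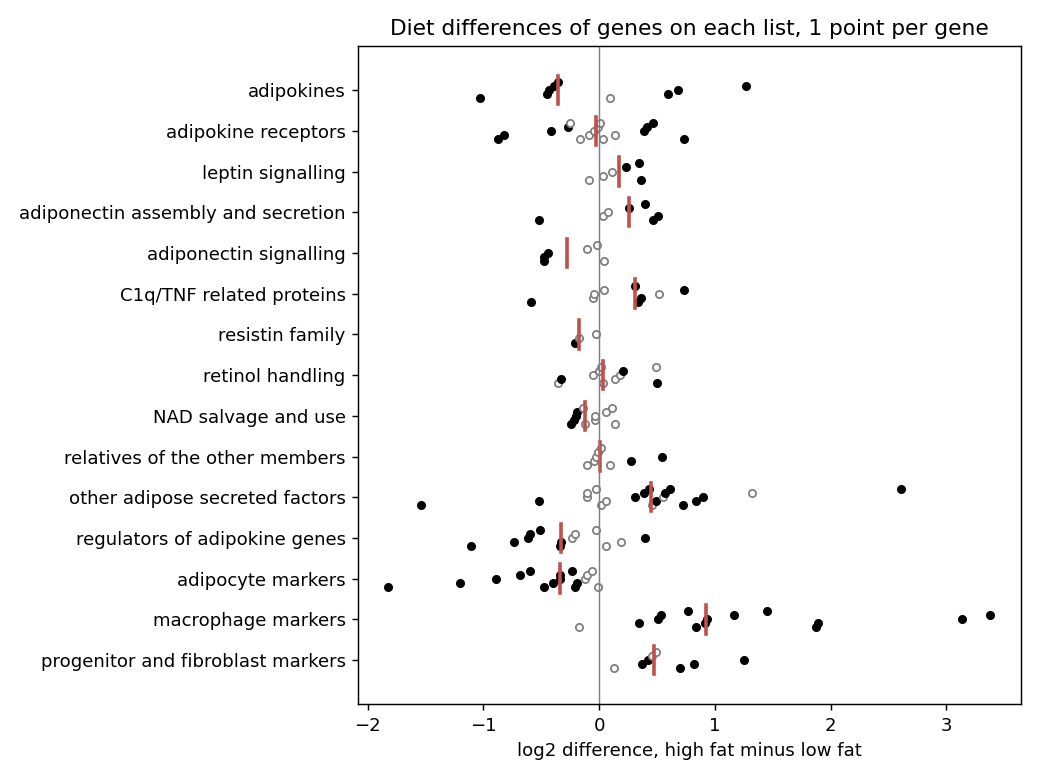
Log2 difference between the diets, high fat minus low fat, of every measured gene on 12 lists around the adipokines and on 3 marker lists, 1 point per gene; filled points passed the limma threshold over all genes, and the red bar is the list's median. The adipokine list has members on both sides of 0, from -1.03 (Nrg4) to 1.27 (Metrnl).

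The genes whose profiles were most alike were found by the root mean square difference between profiles over the 9 arrays, each centred on its own mean, among 17281 genes with an established name. Lep was nearest to Kif21b (0.07), Itpripl2 (0.08) and Pde7a (0.09), Adipoq to Tmem243, Tjp1 and Asah2 (each 0.04), and Retn to Ngly1, Chml and Tshr (each 0.05). Rbp4 was nearest to Clybl, Lonp2 and Phkb (0.04 to 0.05), Nampt to Pomt1, Sowahc and Zadh2 (0.06 to 0.07) and Nrg4 to Scn7a (0.09), Dhtkd1 (0.11) and Fgf10 (0.11). Metrnl was nearest to Ifi30 (0.06), a thiol reductase of lysosomes, Tpcn2 (0.07), an ion channel of lysosomes, and Pld3 (0.08), a lysosomal nuclease. Apln was farther from its nearest genes Knl1 (0.17), Ccn2 (0.18) and Ccnd1 (0.18). The measure follows the shared difference between the diets, and it was used as a description only.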

How the data were processed

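Each of the 9 mice has 1 array. The deposited values are log2 expression per probe set; the submitters' processing notes list RMA (background correction, quantile normalization and probe summary), R 3.5.0 and limma without saying which did what. No source used here gives the annotation version, row filters, scan dates or the array's genome build. Symbols came from the platform's probe table: of 33793 rows, 23521 have 1 symbol, 1814 have several, and 8458 are not listed. For a symbol with several probe sets, the brightest on average was used (1 each for the measured adipokines).

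Diet was tested with limma 3.58.1 in R 4.3.3 (lmFit, eBayes, no covariate), adjusted over 22180 genes, with a threshold of 0.05 and no filter. The procedure was tested on simulated data in which genes varied independently, so that test does not cover correlated genes or tied values. The number of arrays limits precision, and background and saturation were not determined.

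The members and lists were chosen with earlier results of these data known. All adipokine genes and all receptors are named, and of each other list (markers apart) the 4 genes with the smallest p; Erp44, C1qtnf1 and Vegfa were named after their values were seen. Nearest genes are the 3 with the smallest root mean square difference, leaving out predicted or unnamed gene models. Of 229 list entries 215 were measured. Alternatives covered scaling, filtering, probe choice, variance model, weights, rows, pairing and leaving out mice. Upstream sequences are from RefSeq (GRCm38.p6), credited there only.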

Additional observations from a re-analysis of the deposited data

Results flagged for a closer look

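In groups of 4 or 5 mice, a mouse is listed here where its distance to the nearest other mouse takes up more of the group's range than Dixon's 95% critical value allows. Of 134 groups checked over the named genes 8 were past that value, and chance gives about 1 in 20. None of the 18 groups of the adipokine genes themselves was among them. The receptor gene Lepr was at 6.63 in low fat mouse 2, whose group mates spanned 5.61 to 5.66, and at 5.46 in high fat mouse 5, whose group mates spanned 5.65 to 5.71. Kit was at 9.13 in high fat mouse 4 against 8.50 to 8.67. Among partner genes, Gstk1 was at 12.1 in low fat mouse 4 against 11.88 to 11.89, and Prkab2 at 8.34 in high fat mouse 3 against 8.56 to 8.63. Retnlb (5.34 against 5.11 to 5.14) and Ttr (6.22 against 6.01 to 6.04) were high in low fat mouse 3, and Fgf15 was high in high fat mouse 5 (6.09 against 5.93 to 5.95). The Ttr value of low fat mouse 3 equals that of high fat mice 1, 2 and 4. Low fat mice 2 and 4 share the same Retnlb value.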

How the results depend on the processing

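Each adipokine gene was refitted under 21 alternatives, and 183 of 189 values kept their direction and their side of the threshold. The other 6 were Adipoq (0.12), Retn (0.0901), Rbp4 (0.0479) and Nampt (0.0343), which turned relative to the adipocyte markers, Fgf21, which passed on that scale (0.58), and Apln without high fat mice 1 and 2 (0.59). On the adipocyte scale 20852 genes and 5 adipokine genes were called, by construction of a shift of nearly all genes. The exact permutation test gave its smallest possible p of 0.0159 for Lep, Adipoq, Retn, Rbp4, Nampt, Metrnl and Nrg4, 0.0476 for Apln and 0.159 for Fgf21.

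With the mouse number as a replicate block, which drops high fat mouse 5, 4036 genes and the same number of adipokine genes (8) were called. Deviations of same-numbered mice correlated at 0.05 to 0.13 over genes, and 3 of 8 mice correlated best with their own number. With so few mice these values cannot decide whether same-numbered mice were paired.

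Of the 58 other named genes, 20 held under every alternative run. Relative to the adipocyte markers, these turned: Lepr (0.23), Adipor1 (0.47), Adipor2 (0.0676), Cdh13 (0.39), Cmklr1 (0.31), Kit (0.43), Fgfr1 (0.21), Sh2b1 (0.39), Prkaa1 (0.00594), Prkaa2 (0.0392), Prkab2 (0.37), Ppara (0.00614), Retnla (0.31), Retnlb (0.45), Retnlg (0.27), Rdh10 (0.15), Nmnat1 (0.28), Nmrk1 (0.24), Sirt1 (0.26), Sirt3 (0.29) and Apela (0.37). On that scale Gstk1 (-0.04), C1qtnf12 (-0.11), Cebpa (-0.12, itself a reference gene), Srebf1 (-0.03) and Vegfa (-0.04) kept their sign and lost their call. Differences near 0 turned too: Stra6 with arrays centred (-0.00754) or weighted (-0.00448), Erbb3 with quantile normalization (-0.0348), centring (-0.0388), weights (-0.0273) or the block (-0.0467), and Adipor1 (0.0129) and Kit (0.000281) with the block. Leaving out 1 mouse gave -0.34 to 0.00212 for Lepr, -0.0260 to 0.0173 for Adipor1, -0.0203 to 0.10 for Stra6, -0.16 to 0.0333 for Kit, -0.0714 to 0.0891 for Erbb3 and -0.0538 to 0.0229 for Retnlb. On the adipocyte marker scale the markers' mean difference (-0.48) is subtracted from every gene's difference, so falls of smaller size turned by construction. The cause of the other turns was not tested.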

Other observations

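Exactly equal deposited values on different arrays occurred in 41.3% of the 22180 genes, including Adipoq (2 arrays), Apln (3 arrays) and Fgf21 (4 arrays), which limits how finely mice can be ordered for these genes.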
